A study of Mus musculus with 6 samples.

Results

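The kidney expression of 10 genes of the antioxidant defence was compared in 45-day-old wild-type (WT) and Tsc1-KO mice. The genes are Nqo1, Hmox1, Gclc, Gclm, Txnrd1 and Srxn1, which are known targets of the transcription factor NRF2, and Gpx1, Gpx3, Gpx4 and Cat, which encode enzymes that remove peroxides. They were chosen by their function and matched by symbol, and 10 of 10 were found among the 15302 genes of the expression table. Poly A RNA of whole kidney was sequenced in 6 libraries, 3 of WT mice (genotype label C57BL/6, replicates 1 to 3) and 3 of Tsc1-KO mice (genotype label Tsc1f/f/Aqp2 Cre, replicates 4 to 6), all aged 45 days and with no treatment named in the labels. In the Tsc1-KO mice a Cre recombinase under the Aqp2 promoter deletes the floxed Tsc1 gene, and Aqp2 is a gene of principal cells, so most cells of the kidney keep Tsc1. Tsc1 encodes a subunit of the complex that restrains the growth kinase mTORC1, and these mice develop renal cysts. The labels do not say that the WT mice were littermates or carried the floxed allele or Cre, so the loss of Tsc1 and any effect of strain or Cre cannot be told apart.

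NRF2, encoded by Nfe2l2, is held in the cytoplasm and sent for degradation by KEAP1, an adaptor of the CUL3 ubiquitin ligase. When oxidants or electrophiles modify KEAP1, NRF2 builds up, enters the nucleus, pairs with a small MAF protein and binds antioxidant response elements near genes for quinone reduction, heme breakdown, glutathione synthesis and thioredoxin recycling. Glutathione peroxidases and catalase dispose of hydrogen peroxide or lipid peroxides. In the kidney, the proximal tubule is rich in peroxisomes, where catalase resides, and is a main source of GPX3, the glutathione peroxidase of plasma.

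The core of the antioxidant response element, TGACNNNGC, was searched on both strands of the promoter windows of RefSeq (GRCm38.p6), which reach from 250 bases before a transcription start to 50 bases after it. Its letters TGAC also open the AP-1 motif TGACTCA. Of the 10 genes, 8 had a window in the table, and 3 of the 8 held the core. The sites of these 3 genes are shown because they are the places in the windows where NRF2 could be looked for, read on the strand that carries the motif, with the motif in capitals and 10 bases on each side.
Srxn1: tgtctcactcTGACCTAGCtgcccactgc
Gclm: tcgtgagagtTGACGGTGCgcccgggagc
Txnrd1: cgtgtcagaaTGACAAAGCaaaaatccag
The Srxn1 stretch lies at chr2:152105542-152105570, the Gclm stretch at chr3:122245413-122245441 and the Txnrd1 stretch at chr10:82859104-82859132, each on the minus strand and opposite to its gene. Counted from the transcription start in the direction of the gene, the motif begins at base 29 in Srxn1, at -134 in Gclm and at -92 in 1 of the 3 windows of Txnrd1. By comparison, 17% of the tested genes with a window held the core, and 12.4% of all 32851 windows did. A match is a description of the letters and not a binding site, and a window without them says nothing of NRF2 at that gene.

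Another sequence feature is shared by Gpx1, Gpx3, Gpx4 and Txnrd1. Their messages carry an in-frame TGA that is read as selenocysteine instead of a stop, and the selenium atom sits in the active site of each enzyme. The codon is shown in capitals with 12 bases on each side, as annotated in GENCODE M21 on GRCm38, because it defines the group of selenoprotein genes to which these members are compared.
Gpx1: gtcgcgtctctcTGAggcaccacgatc
Gpx3: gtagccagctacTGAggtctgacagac
Gpx4: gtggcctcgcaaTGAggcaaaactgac
Txnrd1: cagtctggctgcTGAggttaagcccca
The codons lie on the plus strand at chr9:108339451-108339453 for Gpx1, chr11:54907256-54907258 for Gpx3, chr10:80054737-80054739 for Gpx4 and chr10:82896037-82896039 for Txnrd1. In the glutathione peroxidases the codon lies in the body of the reading frame, whereas in Txnrd1 it is followed by a single glycine codon and the stop.

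The libraries held 19568856 to 24647430 reads in listed genes. Tsc1 itself was at 7.49 to 8.91 FPKM (reads of the gene scaled to transcript length and to the depth of the library) in WT and 7.62 to 8.23 FPKM in Tsc1-KO libraries, so whole-kidney RNA does not separate the genotypes by this gene. Kidney markers were present: the 12 proximal tubule markers summed to 5212 to 6510 FPKM, with Ass1 the lowest at 0.251 to 0.397 FPKM. Markers of intercalated cells stood apart between the groups, with 5 of 6 higher in Tsc1-KO mice and summed levels of 139.9 to 163.2 FPKM in WT and 246.1 to 303.9 FPKM in Tsc1-KO libraries. The remaining marker, Slc26a4, was at 29.6 to 31.7 FPKM in WT and 25.2 to 27.1 FPKM in Tsc1-KO libraries. Its Tsc1-KO values were all below its WT values, and it was not called (log2 fold change -0.20, adjusted p = 0.132, limma). WT replicate 3 resembled the remaining WT libraries less than they resembled each other: its correlation with WT replicates 1 and 2 across genes was 0.977 and 0.976, against 0.992 between those libraries, and the pseudogene H2-Ea-ps was at 20.3 and 27.1 FPKM in WT replicates 1 and 2, 0.532 FPKM in WT replicate 3 and listed at 0 in the 3 Tsc1-KO libraries. WT replicate 3 correlated at 0.981, 0.980 and 0.974 with Tsc1-KO replicates 4, 5 and 6, about as closely as with WT replicates 1 and 2. The correlations of WT replicates 1 and 2 with the Tsc1-KO libraries were 0.976 to 0.982. Values without WT replicate 3 are given for some of the genes that moved when it was left out, and not for every gene whose call changed.

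None of the 10 genes passed an adjusted p of 0.05 in the comparison of Tsc1-KO with WT mice (limma on log2(FPKM + 0.1), Benjamini-Hochberg adjustment over all 13230 genes tested), nor did any pass with limma-voom on read counts recovered from the table. Among all genes tested 2.11% passed, of which 248 (1.87%) were higher and 31 (0.234%) lower in Tsc1-KO mice, and 2.13% passed with limma-voom. At an unadjusted p under 0.05, Gpx1 and Cat were counted, 2 of 10, both lower in Tsc1-KO mice, beside 19.2% of all genes and 5.72% on the lower side. On the log2 scale the fold changes of these members lay between -0.29 and 0.47, with a median of -0.12 beside 0.04 over all genes, and 6 of 10 were negative beside 40.2% of all genes. Each member was above the filter on low values, which kept genes whose mean over the libraries reached 0.5 FPKM, so 10 of 10 were tested. The lowest read count of a member in any library was 551 (Hmox1).

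**Figure D1:**
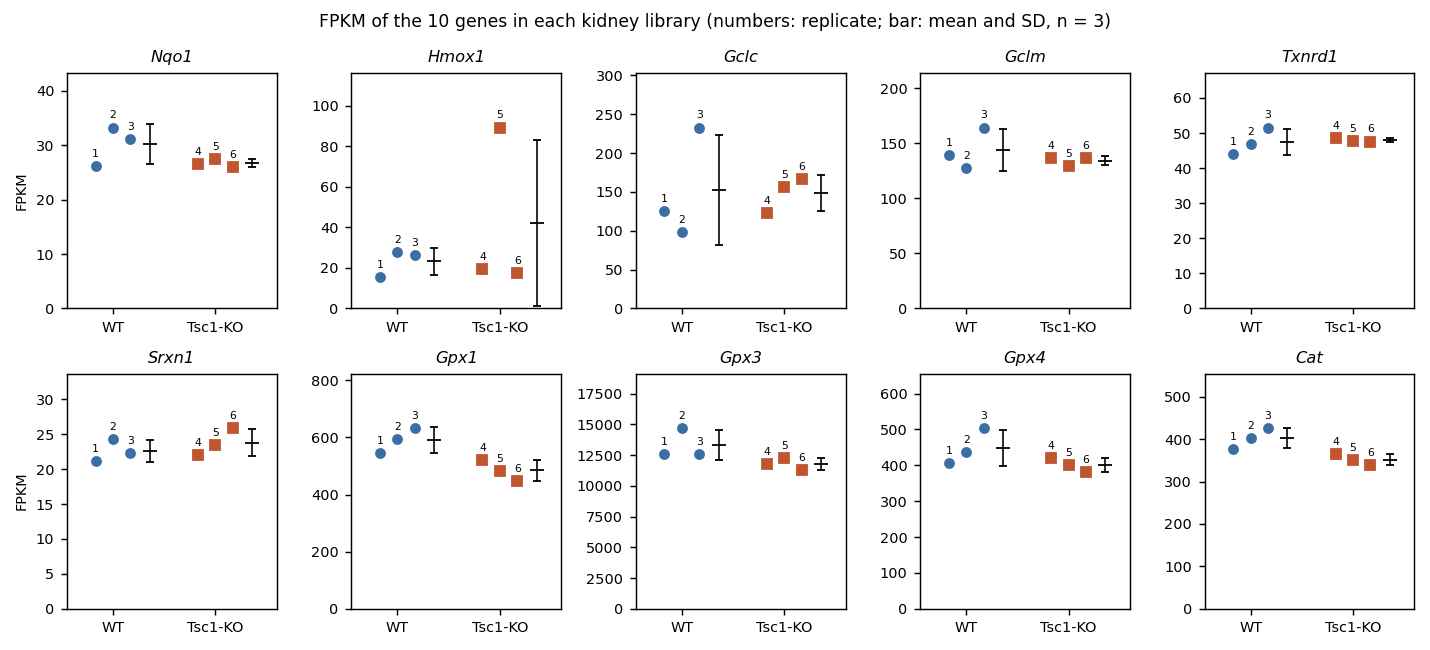
FPKM of each of the 10 genes in each kidney library, on axes that start at 0, with WT replicates 1 to 3 as blue circles, Tsc1-KO replicates 4 to 6 as orange squares and the group mean with its SD (n = 3) as a black bar. Gpx1, Gpx3 and Cat have every Tsc1-KO value below every WT value, Hmox1 has a single high library at 89.4 FPKM in Tsc1-KO replicate 5, and Gclc has a single high library at 233 FPKM in WT replicate 3.

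Nqo1 encodes the NAD(P)H quinone dehydrogenase that reduces quinones without releasing semiquinone radicals and serves widely as a readout of NRF2. Its levels were 26.2, 33.2 and 31.2 FPKM in WT replicates 1 to 3 and 26.6, 27.4 and 26.1 FPKM in Tsc1-KO replicates 4 to 6. The Tsc1-KO values lay close together around the lowest WT value, and the groups overlapped. The mean was 30.2 ± 3.64 FPKM in WT and 26.7 ± 0.675 FPKM in Tsc1-KO mice (SD, n = 3 each), a log2 fold change of -0.17 (SE 0.093, adjusted p = 0.371, limma). The 95% confidence interval of the fold ran from 0.762 to 1.03.

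Hmox1, the inducible heme oxygenase that breaks heme down to biliverdin, iron and carbon monoxide, differed most between libraries. It was at 15.6, 27.9 and 26.4 FPKM in WT and at 19.5, 89.4 and 17.6 FPKM in Tsc1-KO mice. Tsc1-KO replicate 5 alone was high, and the other Tsc1-KO libraries lay inside the WT range. With all libraries Hmox1 had a log2 fold change of 0.47 (SE 0.61, adjusted p = 0.732, limma), and without Tsc1-KO replicate 5 the value was -0.29 (adjusted p = 0.677). The spread of Hmox1 within groups, an SD of 0.98 on the log2 scale, exceeded that of 99.3% of the genes tested.

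Markers of macrophages and red blood cells are given beside Hmox1. The summed level of the 10 macrophage markers was 66.1 to 80.8 FPKM in WT and 69.3 to 105.4 FPKM in Tsc1-KO libraries, with 0 of 9 tested markers called and none at 0. In Tsc1-KO replicate 5, where Hmox1 was highest, this sum was 69.3 FPKM, the lowest of the 3 Tsc1-KO libraries. The red cell gene Alas2, the only one of 5 red cell markers found in the table, was at 3.42, 3.90 and 4.21 FPKM in WT and 6.68, 6.11 and 8.97 FPKM in Tsc1-KO replicates 4 to 6. Alas2 passed narrowly by limma (log2 fold change 0.89, SE 0.16, adjusted p = 0.0438, limma) and was not called by limma-voom. Its value in Tsc1-KO replicate 5 was thus above every WT value and the lowest of the 3 Tsc1-KO values. The part of these cells in the level of Hmox1 was not tested. Among the genes of heme and iron handling, Blvra, which encodes the biliverdin reductase acting after heme oxygenase, had the smallest p, at 58.2, 58.7 and 53.1 FPKM in WT and 46.6, 50.2 and 47.7 FPKM in Tsc1-KO mice (log2 fold change -0.23, SE 0.062, adjusted p = 0.112, limma). Blvra in Tsc1-KO replicate 5 was the highest of the Tsc1-KO values and below every WT value, and it passed only without WT replicate 3 (log2 fold change -0.28, adjusted p = 0.0349, limma). The ferritin subunit genes that NRF2 also controls were abundant and not called, Ftl1 at 2521 to 3048 FPKM and Fth1 at 1885 to 2335 FPKM over the 6 libraries.

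Gclc and Gclm encode the catalytic and the modifier subunit of glutamate-cysteine ligase, the rate-limiting enzyme of glutathione synthesis. Gclc was at 126, 98.5 and 233 FPKM in WT and at 123, 156 and 167 FPKM in Tsc1-KO mice. WT replicate 3 held the highest value and WT replicate 2 the lowest, so the WT group spanned the whole Tsc1-KO range. Between the groups, the log2 fold change was 0.05 (SE 0.30, adjusted p = 0.949, limma), and without WT replicate 3 it was 0.40 (adjusted p = 0.152). The spread of Gclc within groups was larger than that of 95.5% of the genes tested.

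Gclm varied less, with 139, 127 and 164 FPKM in WT and 136, 130 and 136 FPKM in Tsc1-KO mice. WT replicate 3 was again the highest, and the Tsc1-KO values lay inside the WT range. Gclm had a log2 fold change of -0.09 (SE 0.096, adjusted p = 0.657, limma). Since FPKM are scaled to transcript length, the subunit genes can be set side by side: the ratio of Gclc to Gclm was 0.903, 0.773 and 1.42 in WT and 0.904, 1.20 and 1.22 in Tsc1-KO libraries. The catalytic subunit thus stood both below and above the modifier subunit within each group.

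Txnrd1, the cytosolic thioredoxin reductase, was the steadiest of the 10 genes in Tsc1-KO mice. Its levels were 44.0, 46.8 and 51.6 FPKM in WT and 48.7, 47.7 and 47.6 FPKM in Tsc1-KO mice. The Tsc1-KO values lay within the WT range, with a coefficient of variation of 1.25% beside 8.03% in WT. Tsc1-KO against WT gave a log2 fold change of 0.02 (SE 0.068, adjusted p = 0.906, limma), and the fold had a 95% confidence interval of 0.906 to 1.13. Without WT replicate 3 the log2 fold change of Txnrd1 was 0.08 (adjusted p = 0.369, limma).

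Srxn1 encodes sulfiredoxin, which restores overoxidised peroxiredoxins. It was the least abundant of the 10 genes, at 21.2, 24.4 and 22.3 FPKM in WT and 22.0, 23.4 and 25.9 FPKM in Tsc1-KO mice. The groups overlapped, and the highest value was that of Tsc1-KO replicate 6. Srxn1 had a log2 fold change of 0.07 (SE 0.084, adjusted p = 0.701, limma), with a 95% confidence interval of the fold of 0.915 to 1.21. Without Tsc1-KO replicate 6 the log2 fold change of Srxn1 was 0.01, and without WT replicate 2 it was 0.13. The 3 genes with the core motif in a promoter window, Srxn1, Gclm and Txnrd1, therefore had log2 fold changes between -0.09 and 0.07.

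The members that encode peroxide-removing enzymes, Gpx1, Gpx3, Gpx4 and Cat, showed lower mean levels in Tsc1-KO mice, 4 of 4. In Gpx1, Gpx3 and Cat the groups did not overlap. A negative log2 fold change was found in 40.2% of all genes tested. Over all genes tested, 8.07% had every Tsc1-KO value below every WT value. Gpx1 encodes the cytosolic glutathione peroxidase. Its levels were 544, 595 and 633 FPKM in WT and 522, 483 and 447 FPKM in Tsc1-KO mice. The gap between the groups, from 522 to 544 FPKM, was small beside the range within either group. The mean was 591 ± 44.7 FPKM in WT and 484 ± 37.2 FPKM in Tsc1-KO mice (SD, n = 3 each), a fold of 0.819 with a 95% confidence interval of 0.711 to 0.944. Although this interval leaves out 1, Gpx1 did not pass the adjustment over all genes (log2 fold change -0.29, SE 0.086, unadjusted p = 0.0127, adjusted p = 0.143, limma). In whole-kidney RNA, fewer cells of a type and less RNA per cell cannot be told apart.

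Cat, the catalase of peroxisomes, was at 377, 403 and 427 FPKM in WT and at 364, 351 and 338 FPKM in Tsc1-KO mice. Every Tsc1-KO library was below every WT library, with the nearest pair at 364 and 377 FPKM. The fold was 0.873 with a 95% confidence interval of 0.782 to 0.975 (log2 fold change -0.20, SE 0.067, unadjusted p = 0.0227, adjusted p = 0.184, limma). Cat also followed Gpx1 most closely: among 8470 other genes whose mean reached 5 FPKM, the highest Pearson correlations with Gpx1 over the 6 libraries on the log2 scale were those of Cat (r = 0.992), Cenpv (r = 0.981) and Slc13a3 (r = 0.981). These values share the libraries and the scaling and are a description. Slc13a3, a sodium-coupled dicarboxylate transporter gene, was at 187, 217 and 220 FPKM in WT and 175, 156 and 152 FPKM in Tsc1-KO mice, whereas Cenpv, a centromere protein gene, was at 14.1, 15.1 and 15.6 FPKM and 12.9, 12.8 and 11.6 FPKM.

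Gpx3 was the second most abundant gene in every library and the most abundant of the 10. It was at 12586, 14717 and 12607 FPKM in WT and at 11756, 12224 and 11251 FPKM in Tsc1-KO mice. The nearest pair, WT replicate 1 and Tsc1-KO replicate 5, differed by less than the SD of the Tsc1-KO group, which was 487 FPKM. The fold was 0.885 (95% confidence interval 0.712 to 1.10, log2 fold change -0.18, SE 0.13, adjusted p = 0.520, limma). As a share of the reads in listed genes, Gpx3 took 2.04%, 2.38% and 2.04% in WT and 1.90%, 1.98% and 1.82% in Tsc1-KO libraries, and its 95% Wilson interval in WT replicate 1 was 2.03% to 2.04%. Such intervals cover counting error only. The shares of WT replicates 1 and 3 lay within each other's intervals, and each Tsc1-KO share was below each WT share.

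Gpx4, the glutathione peroxidase that reduces lipid hydroperoxides in membranes, was at 405, 436 and 504 FPKM in WT and at 421, 402 and 382 FPKM in Tsc1-KO mice. The groups overlapped, since WT replicate 1 lay below Tsc1-KO replicate 4. Gpx4 had a log2 fold change of -0.16 (SE 0.092, adjusted p = 0.414, limma), and without WT replicate 3, which held its highest value, the log2 fold change was -0.07 (adjusted p = 0.566). The pseudogenes Gpx4-ps1 and Gpx4-ps2 carry similar sequence, and how such reads were assigned is not given in the sources used here, so the level of Gpx4 is uncertain to that degree. Txnrd1 and Gclm overlap other annotated genes (Eid3 and Gm38560, and Gm46822 and Gm6061), and their counts carry the same reservation.

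Proximal tubule markers also differed between the groups in sum. The summed level of the 12 markers was 6510, 6458 and 6445 FPKM in WT and 6097, 6145 and 5212 FPKM in Tsc1-KO libraries. Every Tsc1-KO sum was below every WT sum. Of 11 tested markers, 0 were called, their median log2 fold change was -0.16, and 3 of 11 were positive. The sum weighs abundant markers most. Miox had means of 2023 FPKM in WT and 1755 FPKM in Tsc1-KO mice, and Slc34a1 of 1925 and 1733 FPKM. Slc22a7, 1 of the 3 positive markers, had means of 133 and 176 FPKM. Within WT the sum was highest in replicate 1, where Gpx1 and Cat were lowest. Set against this sum, a quantity computed after the values were seen, Gpx1 amounted to 8.36%, 9.21% and 9.83% in WT and 8.56%, 7.86% and 8.58% in Tsc1-KO libraries. Cat amounted to 5.80%, 6.24% and 6.62% in WT and 5.97%, 5.71% and 6.48% in Tsc1-KO libraries. Gpx3 likewise stood at 193%, 228% and 196% of the sum in WT and 193%, 199% and 216% in Tsc1-KO libraries. On this scale the groups overlapped for all 3 genes. Gpx1 kept the lower mean in Tsc1-KO mice, at 9.13 ± 0.738% in WT and 8.34 ± 0.411% in Tsc1-KO libraries (SD, n = 3 each). The means of Cat were 6.22% and 6.06%, and those of Gpx3 were 206% and 203%. The part of the proximal tubule in the lower levels of Gpx1, Cat and Gpx3 was not tested.

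**Figure D2:**
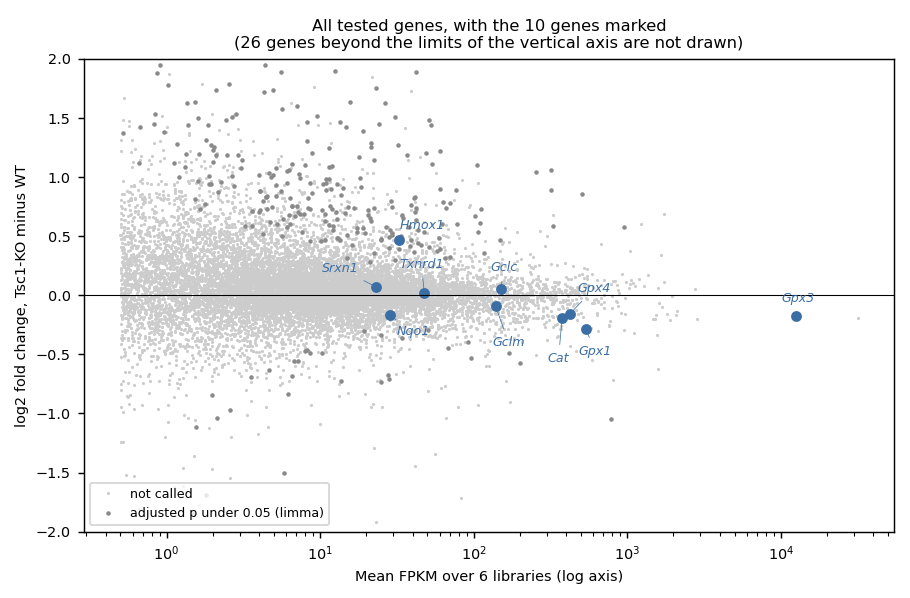
Mean FPKM over the 6 libraries (log axis) against the log2 fold change of Tsc1-KO over WT for all genes tested, in grey, with genes at an adjusted p under 0.05 darker and the 10 genes in blue; 26 genes beyond the vertical limits are not drawn. The 10 genes lie within the cloud of genes not called, and Gpx1, Gpx3, Gpx4 and Cat sit together below 0 at the abundant end.

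In order of mean level, the 10 genes ran Gpx3, Gpx1, Gpx4, Cat, Gclc, Gclm, Txnrd1, Hmox1, Nqo1 and Srxn1. The ranges over the 6 libraries did not meet between Gpx3 and Gpx1, between Cat and Gclc, between Gclm and Txnrd1, or between Nqo1 and Srxn1, where 26.1 FPKM faced 25.9 FPKM. All other neighbours overlapped: Gpx1 with Gpx4, Gpx4 with Cat, Gclc with Gclm, Txnrd1 with Hmox1, and Hmox1 with Nqo1. The peroxide-removing enzymes were each more abundant per length than every NRF2 target of the set. Among the NRF2 targets, the glutathione synthesis genes were the most abundant.

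The regulators of the pathway were examined next. Nfe2l2 was at 22.9, 27.4 and 25.6 FPKM in WT and 27.8, 30.4 and 30.5 FPKM in Tsc1-KO mice. The groups did not overlap, as was the case on the higher side for 17.3% of all genes tested, and the log2 fold change was 0.23 (SE 0.082, unadjusted p = 0.0281, adjusted p = 0.201, limma). Keap1, the inhibitor, was at 7.94 to 8.56 FPKM in Tsc1-KO and 8.22 to 8.97 FPKM in WT mice (log2 fold change -0.06, adjusted p = 0.737). Sqstm1, which encodes the autophagy receptor p62 that competes for KEAP1, was at 294 to 309 FPKM in Tsc1-KO and 269 to 300 FPKM in WT mice (log2 fold change 0.08, adjusted p = 0.560, limma). Bach1, the repressor that occupies antioxidant response elements, was at 7.31 to 8.71 FPKM in Tsc1-KO and 7.62 to 8.78 FPKM in WT mice (log2 fold change 0.00, adjusted p = 0.989, limma). None of these 4 genes was called.

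Of the 12 pathway regulators tested, 1 rose and 0 fell in Tsc1-KO mice, with a median log2 fold change of 0.03. Over all genes tested, 1.87% were called higher and 0.234% lower. At an unadjusted p under 0.05 (limma) 3 of the 12 were counted, all on the higher side, beside 19.2% of all genes. The gene that rose was Nfe2l1, which encodes NRF1, a relative of NRF2 anchored in the endoplasmic reticulum and known for driving proteasome genes. Nfe2l1 was at 40.6, 44.6 and 45.8 FPKM in WT and at 55.6, 58.0 and 60.5 FPKM in Tsc1-KO mice. The lowest Tsc1-KO value exceeded the highest WT value by more than the SD of either group, 2.71 FPKM in WT and 2.44 FPKM in Tsc1-KO mice. The log2 fold change was 0.41 (SE 0.066, adjusted p = 0.0325, limma). The call was lost on leaving out each library other than WT replicate 3, with log2 fold changes of 0.36 to 0.44 in those comparisons and adjusted p up to 0.152, and with no variance trend (adjusted p = 0.0677, limma). With those libraries left out, only 0 to 184 of all 13230 genes passed.

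**Figure D3:**
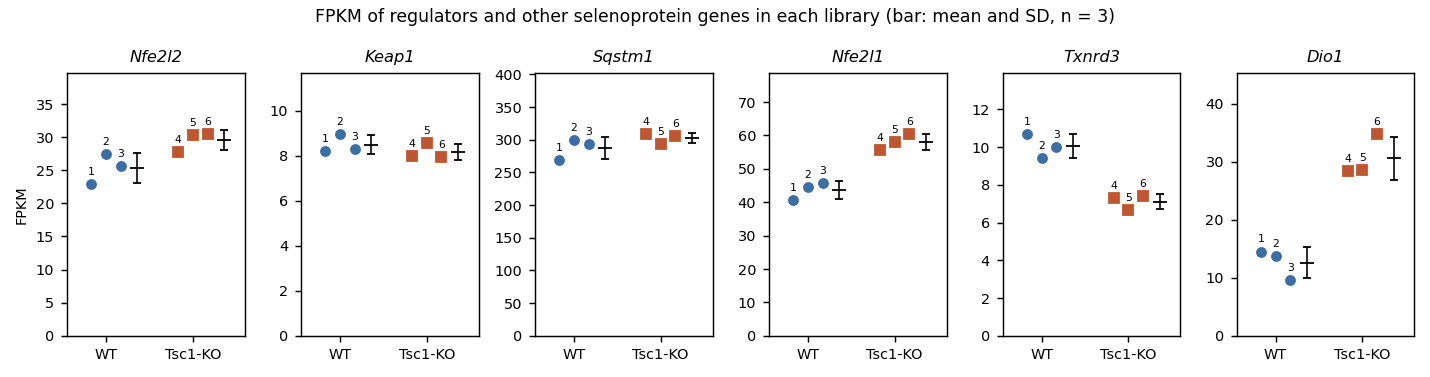
FPKM of Nfe2l2, Keap1, Sqstm1, Nfe2l1, Txnrd3 and Dio1 in each library, with WT replicates 1 to 3 as blue circles, Tsc1-KO replicates 4 to 6 as orange squares and the mean with its SD (n = 3) as a black bar. Nfe2l1 and Dio1 have every Tsc1-KO value above every WT value and passed the test, Txnrd3 has every Tsc1-KO value below and passed, and Nfe2l2 is higher in every Tsc1-KO library without passing.

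No other gene listed as an NRF2 target was called by limma with all libraries. Of 26 tested, 0 rose and 0 fell, with 4 at an unadjusted p under 0.05 (2 on each side), 0 by limma-voom and a median log2 fold change of -0.01. Over all genes tested, 19.2% had an unadjusted p under 0.05. Ephx1, the microsomal epoxide hydrolase, had the smallest p, at 23.1, 25.6 and 17.8 FPKM in WT and 29.6, 33.1 and 35.7 FPKM in Tsc1-KO mice. The groups did not overlap, and the log2 fold change was 0.58 (SE 0.14, adjusted p = 0.0939, limma). WT replicate 3 held the lowest value of Ephx1, and without it the log2 fold change was 0.43 and passed (adjusted p = 0.0449), where 8.38% of all genes passed.

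Among 18 tested genes of glutathione supply and use, 0 were called by limma or limma-voom, with 3 at an unadjusted p under 0.05, all on the higher side, and a median log2 fold change of -0.01. Of all 13230 genes tested, 19.2% had such a p, with 1778 genes on the higher side. Gpx7, a glutathione peroxidase family member of the endoplasmic reticulum, had the smallest p, at 1.03, 0.880 and 0.839 FPKM in WT and 1.43, 1.56 and 1.94 FPKM in Tsc1-KO mice (log2 fold change 0.77, SE 0.17, adjusted p = 0.0755, limma). It thus stood on the other side from Gpx1, Gpx3 and Gpx4, at a level near 1 FPKM that rests on 22 to 58 reads per library. The 9 superoxide dismutases and related genes tested had 0 calls and 0 at an unadjusted p under 0.05. Sod1, the cytosolic superoxide dismutase, had the smallest p there, at 913, 898 and 1082 FPKM in WT and 927, 891 and 781 FPKM in Tsc1-KO mice (log2 fold change -0.15, adjusted p = 0.477, limma, and -0.07 without WT replicate 3).

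The genes of heme and iron handling, 9 tested, had 0 calls and 3 at an unadjusted p under 0.05, all on the lower side, with a median log2 fold change of -0.13. Over all 13230 genes tested, 5.72% had such a p on the lower side and 1778 genes on the higher side. Of 11 tested enzymes that produce superoxide or peroxide, 0 were called and 3 had an unadjusted p under 0.05, all on the higher side. Maob, a mitochondrial monoamine oxidase, had the smallest p among them, at 1.73, 1.64 and 1.67 FPKM in WT and 2.64, 4.45 and 2.91 FPKM in Tsc1-KO mice (log2 fold change 0.91, SE 0.20, adjusted p = 0.0744, limma). Limma-voom called 0 genes among these enzymes, among the genes of heme and iron handling and among the superoxide dismutases and related genes.

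Of 15 tested thioredoxin and peroxiredoxin genes, 0 rose and 1 fell, with a median log2 fold change of 0.02. Over all genes tested, 1.87% were called higher and 0.234% lower. At an unadjusted p under 0.05 (limma) 4 of the 15 were counted, 2 on each side, beside 19.2% of all genes. The gene that fell was Txnrd3, a thioredoxin reductase that also carries a glutaredoxin domain. It was at 10.7, 9.42 and 9.99 FPKM in WT and 7.29, 6.65 and 7.39 FPKM in Tsc1-KO mice. All Tsc1-KO values were below all WT values by a margin wider than the range of either group, and the log2 fold change was -0.49 (SE 0.082, adjusted p = 0.0364, limma). The call was lost on leaving out each library other than WT replicate 3 (adjusted p up to 0.142), where only 0 to 184 of all 13230 genes passed. It was also lost with no variance trend (adjusted p = 0.0510, limma). Txnrd1 and the mitochondrial Txnrd2 (log2 fold change -0.07, adjusted p = 0.672) were not called. Txnrd3 shares with Txnrd1 the selenocysteine codon before the final glycine, here in capitals.
Txnrd3: cagaaaggctgcTGAggctagccctgc
This codon lies on the plus strand at chr6:89674789-89674791 (GRCm38).

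The genes with an annotated selenocysteine codon, a group formed after values of its genes were seen, numbered 24 in GENCODE M21, of which 21 were matched to the table by gene ID and 20 were tested. Of these, 1 rose and 1 fell, beside 1.87% and 0.234% of all genes, and the median log2 fold change was -0.03. At an unadjusted p under 0.05 (limma) 5 of the 20 were counted, beside 19.2% of all genes. Txnrd3 was the gene that fell. The gene that rose was Dio1, the type 1 iodothyronine deiodinase that converts thyroxine to the active hormone, at 14.5, 13.7 and 9.53 FPKM in WT and 28.4, 28.5 and 34.8 FPKM in Tsc1-KO mice. Its lowest Tsc1-KO value was far above the highest WT value, and the fold was 2.45 (95% confidence interval 1.86 to 3.23, log2 fold change 1.29, SE 0.17, adjusted p = 0.0205, limma). On leaving out WT replicate 1 or any of the 3 Tsc1-KO libraries the call of Dio1 was lost, with adjusted p values up to 0.0947 and log2 fold changes that stayed between 1.11 and 1.41 over the 6 libraries left out. Where the call of Dio1 was lost, only 0 to 104 of all 13230 genes passed. Selenoprotein genes therefore did not share a direction: Gpx1, Gpx3 and Gpx4 had lower means in Tsc1-KO mice, Dio1 was higher, and Txnrd1 differed by 0.02 on the log2 scale.

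In the list for selenoprotein supply, which holds the machinery of selenocysteine insertion and selenium transport besides selenoproteins of other functions, 0 of 13 tested genes were called by limma or limma-voom, with 2 at an unadjusted p under 0.05. The share of all genes at such a p was 19.2%. Sepw1, a small selenoprotein of the thioredoxin fold, had the smallest p, at 42.3, 53.4 and 50.5 FPKM in WT and 59.4, 63.1 and 63.7 FPKM in Tsc1-KO mice (log2 fold change 0.35, SE 0.092, adjusted p = 0.107, limma). Sepp1, the selenium carrier of plasma, was at 1472, 970 and 1264 FPKM in WT and 1132, 924 and 884 FPKM in Tsc1-KO mice (log2 fold change -0.32, SE 0.17, adjusted p = 0.353, limma). Its groups overlapped, and WT replicate 1 was the highest.

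**Figure D4:**
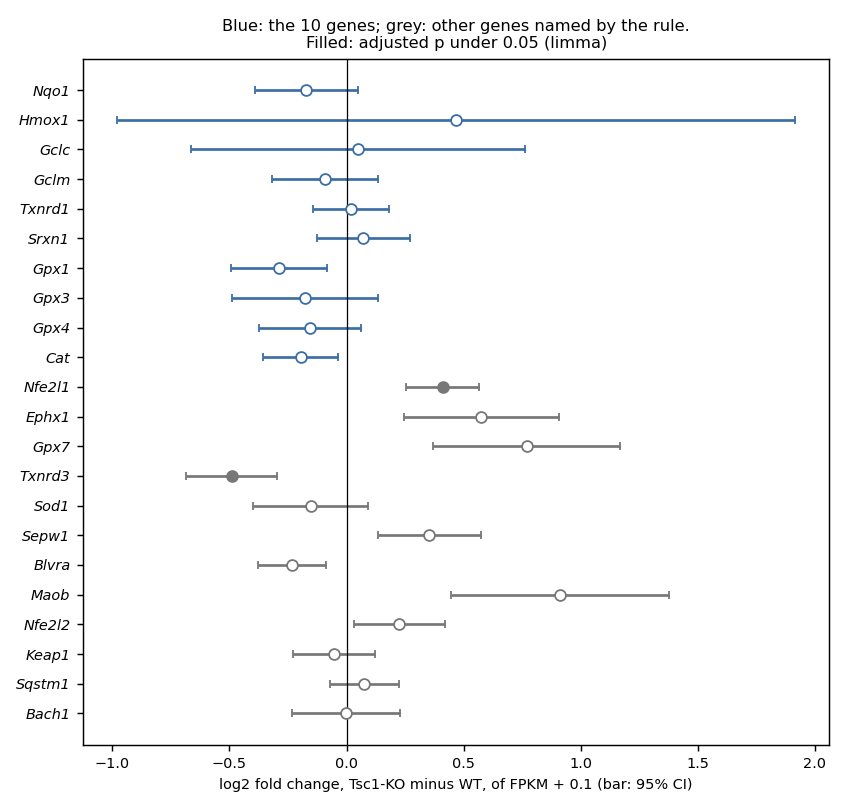
The log2 fold change of Tsc1-KO over WT, on the scale of FPKM + 0.1, with its 95% confidence interval from limma, for the 10 genes in blue and the other genes named by the rule in grey; filled points passed an adjusted p of 0.05. Only Nfe2l1 and Txnrd3 are filled. Without passing, the intervals of Gpx1, Cat and Blvra lie below 0, and those of Nfe2l2, Ephx1, Gpx7, Sepw1 and Maob lie above 0. The interval of Hmox1 is the widest, from -0.98 to 1.92.

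Leaving out a library at a time, 0 of the 10 genes was called in any of the 6 comparisons. When WT replicate 3 was the one left out, 8.38% of all genes passed. In the other comparisons only 0 to 184 of all 13230 genes passed, so the absence of calls among the 10 genes adds little there. The count of 0 came on dropping Tsc1-KO replicate 6, where a call of a member was therefore not possible. Nqo1, Gpx1, Gpx3, Gpx4 and Cat kept a negative log2 fold change in each comparison, and Srxn1 a positive one, and the same held under each of the 7 other alternatives run. The log2 fold change of Gpx1 ran from -0.35 to -0.23 and that of Cat from -0.24 to -0.15, with adjusted p values from 0.135 to 0.368 and from 0.175 to 0.434 (limma). Those of Nqo1, Gpx3 and Gpx4 ran from -0.27 (without WT replicate 1) to -0.10 (without WT replicate 2), from -0.21 to -0.10 (without WT replicate 2) and from -0.23 (without WT replicate 1) to -0.07 (without WT replicate 3). Hmox1, Gclc, Gclm and Txnrd1 took either sign, depending on the library left out. For Gclc the range was -0.22 to 0.40, and for Hmox1 it was -0.29 to 0.88.

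**Figure D5:**
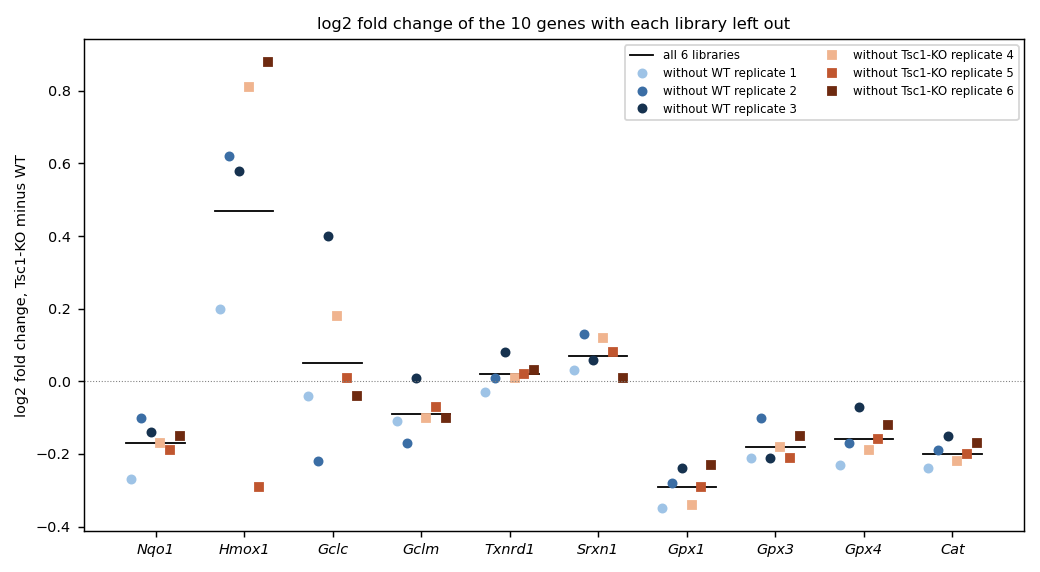
The log2 fold change of Tsc1-KO over WT of each of the 10 genes with all 6 libraries (black line) and with each library left out (circles for WT, squares for Tsc1-KO libraries). The points of Hmox1 and Gclc are the most scattered, from -0.29 to 0.88 and from -0.22 to 0.40, whereas those of Gpx1 and Cat stay below 0.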

How the data were processed

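Kidney RNA of WT and Tsc1-KO mice was sequenced after poly A selection, in 3 libraries each. The submitters' processing notes name HISAT2 2.0.4 and HTSeq 0.9.1, and the genome build and the use of strand are not given in the sources used here. The authors deposited FPKM, 1 column per library. The base mean columns that the authors deposited hold a signal: the normalised count averaged across libraries. The authors deposited also a fold change (a ratio), its log2 and p-values of their own comparison, none of which was used, and 2 lists of genes taken from it, which were not used. Reads were recovered from the FPKM and base mean columns (100% of 90069 values up to 10000 within 0.02 of a whole number) for depth and for limma-voom.

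FPKM were analysed as log2(FPKM + 0.1) in limma 3.58.1 (R 4.3.3). Genes whose mean reached 0.5 FPKM were kept (13230). Genotype was the only term, the prior variance followed the mean level, tests were 2-sided, and p-values were adjusted by Benjamini-Hochberg over the genes kept. A fold change on this scale understates the change of low genes. The labels number the libraries of a group and do not say that each is a separate mouse, so n counts libraries and p-values measure the spread between them, which may be technical. The fit was tested on simulated data. Alternatives were pseudocounts of 1 and 0.01 FPKM, no filter, a mean of at least 2 FPKM, median-of-ratios scaling, no variance trend, limma-voom, and each library left out.

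The genes named were the 10 genes, Nfe2l2, Keap1, Sqstm1 and Bach1, up to 4 called genes (or the gene of smallest p) in each of 8 lists of related genes, and the 3 genes most correlated with the member of smallest p. Others (Alas2, Ass1, Dio1, Ftl1, Fth1, Sepp1, Txnrd2, H2-Ea-ps, Slc26a4, Miox, Slc34a1, Slc22a7) were picked once their values had been seen. The members and the lists were chosen with earlier results of these data known. Of the 13 lists of cell type markers, those whose levels bear on a result are given. Python 3.11.15 with numpy 2.4.6, pandas 2.3.3, scipy 1.17.1 and matplotlib 3.10.9 made the tables and figures.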

Additional observations from a re-analysis of the deposited data

How the results depend on the processing

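No paired analysis was possible because the WT and Tsc1-KO libraries share no replicate number. Over 13 alternatives, 0 of the 10 genes was called in each. That adds little for the comparisons in which few of all genes passed. With no variance trend, the calls fell to 0 among NRF2 pathway regulators, 0 among thioredoxins and peroxiredoxins and 1 among genes with a selenocysteine codon, since Nfe2l1 and Txnrd3 missed the threshold. Leaving out a library moved the count of all genes called from 279 to between 0 (without Tsc1-KO replicate 6) and 1109 (without WT replicate 3). It gave 0 to 1 called NRF2 pathway regulators, 0 to 3 other NRF2 targets, 0 to 1 thioredoxins and peroxiredoxins, 0 to 1 selenoprotein supply genes, 0 to 3 heme and iron genes, 0 to 1 peroxide-producing enzymes and 0 to 3 genes with a selenocysteine codon. The highest counts of these lists came without WT replicate 3.

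The sign of a log2 fold change turned for Hmox1 without Tsc1-KO replicate 5 (-0.29, with up to 0.88 on leaving out another library), for Gclc without WT replicate 1 (-0.04), WT replicate 2 (-0.22) or Tsc1-KO replicate 6 (-0.04, with up to 0.40 otherwise), for Gclm without WT replicate 3 (0.01, down to -0.17 otherwise), for Txnrd1 without WT replicate 1 (-0.03, up to 0.08 otherwise) or with median-of-ratios scaling (-0.02), and for Bach1 without WT replicate 2 or Tsc1-KO replicate 4 (0.06 each, down to -0.07 otherwise). None of these was called in any setting, and the cause was not tested. With 3 libraries per group, the interval of Hmox1 leaves both a fold of 0.507 and a fold of 3.77 possible.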
